A study of Homo sapiens with 12 samples.

Results

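Small nucleolar RNAs (snoRNAs) and small Cajal body RNAs (scaRNAs) were taken as every gene whose symbol in the array's annotation starts with SNORD, SNORA or SCARNA, with the brightest probe set of that symbol standing for the gene. The rule found 192 RNAs among 18417 genes with a probe set of a single symbol: 115 SNORD, 61 SNORA and 16 SCARNA genes. Another 84 symbols of these kinds were listed only on probe sets that carry several symbols, 76 probe sets in all, and those RNAs were kept out of the counts.

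The study used SK-mel147, an established human melanoma cell line, infected with lentiviral plasmids that encode short hairpin RNAs against the histone variant genes H2AZ1 or H2AZ2. Total RNA of 12 samples was hybridised to Affymetrix gene arrays, 1 RNA per array, and the deposited values are log2 signals, so that 1 unit is a 2-fold difference. Each target had 4 arrays. The control hairpins were scrambled and luciferase, the H2AZ2 hairpins sh_37 and sh_38, and the H2AZ1 hairpins sh_83 and sh_84, with 2 arrays each and all arrays from infected cells of the same line. The sample titles call the reagents siRNA and the protocol calls them shRNA. The second sh_84 array carries the hairpin name sh_43 in a further label, and its title was followed here. No label says whether the 2 arrays of a hairpin came from separate cultures, so the p-values given here reflect variation among these arrays alone, and part of it may be technical.

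The targeted genes were checked first. The H2AZ2 signal averaged 46.1% of the control mean with sh_37 and 65.4% with sh_38, and the H2AZ1 signal 19.3% with sh_83 and 92.0% with sh_84. With sh_37 and sh_38 the H2AZ1 signal was 86.2% and 90.5%, so it was no lower with sh_84 than with hairpins against H2AZ2. Results for H2AZ1 thus rest on a strong hairpin, sh_83, and on sh_84, where no clear reduction of H2AZ1 was seen. Of the melanocytic markers, SOX10 averaged 10.62 and MITF 8.29 in the control arrays, whereas PMEL, MLANA, TYR, TYRP1 and S100B averaged 4.76 to 5.72, a dim range with no background level to set it against. Among markers of other cell types, LUM averaged 8.81, KRT14 8.31 and COL1A1 7.77. MITF was thus no brighter than LUM or KRT14, and of these melanocytic markers only SOX10 stood above them. The mean over all genes differed by at most 0.04 between arrays.

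Box C/D snoRNAs (SNORD) guide 2′-O-methylation and box H/ACA snoRNAs (SNORA) guide pseudouridylation, mostly of ribosomal RNA, while scaRNAs (SCARNA) guide the same modifications of spliceosomal RNAs in Cajal bodies. Most human snoRNAs are not transcribed on their own: they are trimmed from excised introns of a host transcript, then bound by fibrillarin, NOP56, NOP58 and SNU13 (box C/D) or by dyskerin, NHP2, NOP10 and GAR1 (box H/ACA). A few, such as SNORD13 and SNORD14, act in the processing of the ribosomal RNA precursor. The SNORD115 and SNORD116 copies lie in the imprinted Prader-Willi region and the SNORD113 and SNORD114 copies in the imprinted DLK1-DIO3 region, and most of these have no known ribosomal RNA target.

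In the RefSeq gene table of assembly GRCh38.p14, 190 of the 192 RNAs lay within the span of another gene, 174 of them within a single gene, with the strand not known. The exceptions were SNORD13, which has its own promoter, and SNORD32B. SNHG14 held 40 (20 SNORD115 and 20 SNORD116 copies), GAS5 held 7, MEG8 held 6, RPL13A held 4, and NCL, RABGGTB, RPL23A, RPL3, SNHG17 and TBRG4 held 3 each. Many snoRNA hosts are known to start transcripts with a stretch of C and T bases, the terminal oligopyrimidine tract. The first bases of the 8 hosts with at least 3 RNAs and an entry in the reference are shown, and 3 of the 8 had a run. Whether such a run goes with RNAs of a host varying together was not tested. Each run holds 10 bases before the annotated start and 20 from it, on the transcript's strand (RefSeq, GRCh38.p14), and capitals mark an unbroken run of at least 5 bases that are C or T and that covers the start.

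RABGGTB (chr1:75786246-75786275, +): cctgCTCTCTCCTTTCCCTgttagacatgg
RPL13A (chr19:49487598-49487627, +): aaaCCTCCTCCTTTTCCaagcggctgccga
RPL3 (chr22:39319604-39319633, -): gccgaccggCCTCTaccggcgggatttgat
GAS5 (chr1:173869026-173869055, -): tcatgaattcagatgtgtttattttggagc
SNHG14 (chr15:24823598-24823627, +): gtcctcctgcgccgacctcgaatgcggtcc
NCL (chr2:231464465-231464494, -): ctttcgcctcagtctcgagctctcgctggc
SNHG17 (chr20:38435309-38435338, -): gtgtggcctcagtccttcgccgtccctcgc
TBRG4 (chr7:45111678-45111707, -): cgcgcacctcatggttccggggacagttag

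Such a run was found in 35 of 100 hosts with a promoter in the reference (35.0%), against 2675 of 27305 promoters in all (9.8%), searched on the transcript's strand. Among the hosts that encode ribosomal proteins, 11 of 12 had it. The lack of a run for GAS5, SNHG14, NCL, SNHG17 and TBRG4 says only that none covers the annotated start. Stretches of C and T lie elsewhere in some of these windows. A single RNA of the set could be shown itself, through a microRNA hairpin that it overlaps: SCARNA16 shares 77 bases with the MIR6516 hairpin (RefSeq, chr17:77089417-77089497, +), in which capitals mark the mature arms.

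MIR6516: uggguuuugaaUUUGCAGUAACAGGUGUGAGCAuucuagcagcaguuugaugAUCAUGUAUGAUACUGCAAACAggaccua
hsa-miR-6516-5p: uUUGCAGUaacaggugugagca
hsa-miR-6516-3p: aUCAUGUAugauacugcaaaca

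In the mature sequences the capitals mark the seed, bases 2 to 8. The SCARNA16 probe set read 8.03 and 8.23 with scrambled, 7.96 and 8.17 with luciferase, 8.14 and 8.18 with sh_37, 8.05 and 8.09 with sh_38, 7.94 and 8.18 with sh_83, and 8.23 and 8.32 with sh_84. All 12 arrays thus lay close together, and the 3 targets overlapped.

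The RNAs spanned a wide range of signal. A probe set's signal depends on its own probes as well as on the amount of RNA, so levels order the probe sets and not the molecules. The median over 12 arrays was 6.66 for SNORD, 7.45 for SNORA and 7.74 for SCARNA, against 7.69 for all genes. The SNORD value was lowered by the imprinted families. The 69 SNORD RNAs outside them had a median of 7.94, above that of SNORA, whereas SNORD115 had 2.70, SNORD116 6.26 and SNORD113 with SNORD114 3.60. The brightest SNORD probe sets were SNORD33 (12.71), SNORD116-15 (12.44), SNORD41 (12.17), SNORD13 (12.13), SNORD45A (12.06), SNORD57 (12.01), SNORD13P3 (11.90) and SNORD116-14 (11.61). SNORD33, an RPL13A intron product that guides methylation of ribosomal RNA, read 12.59 and 12.50 with scrambled, 13.10 and 12.73 with luciferase, 12.75 and 12.75 with sh_37, 12.69 and 12.65 with sh_38, 12.65 and 12.58 with sh_83, and 12.84 and 12.64 with sh_84. Its 3 targets overlapped, with the highest value on a luciferase array and the lowest on a scrambled one.

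The brightest SNORA probe sets were SNORA71D (12.71), SNORA3A (11.43), SNORA71C (11.13), SNORA68 (11.02), SNORA23 (10.98) and SNORA38B (10.89). Among the scaRNAs, SCARNA12 (11.14) and SCARNA7 (11.07) were the brightest, followed by SCARNA17 (8.84), SCARNA10 (8.55), which carries both box types, and SCARNA16 (8.13). The SNORD115 copies, which are expressed mainly in brain, were the dimmest group, with a median of 2.70 over 20 copies. SNORD115-4 (2.30), SNORD115-37 (2.45), SNORD115-28 (2.49) and SNORD115-14 (2.53) were the 4 dimmest RNAs of the set. The 20 SNORD116 copies, cut from the same host transcript, ranged from 2.90 to 12.44 with a median of 6.26. Copies of these families are near-identical in sequence and lie in a single host, so their probe sets may share targets, and they are not independent of each other.

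The mean level of the 192 RNAs was 7.03 and 6.73 with scrambled, 7.09 and 7.17 with luciferase, 6.93 and 6.91 with sh_37, 6.93 and 6.68 with sh_38, 6.83 and 6.93 with sh_83, and 7.16 and 6.94 with sh_84. The lowest values were those of the second sh_38 and second scrambled arrays, the highest those of the second luciferase and first sh_84 arrays, and the 3 targets overlapped. By target it averaged 7.01 ± 0.19 (SD, n = 4) in controls, 6.86 ± 0.12 (SD, n = 4) with H2AZ2 hairpins and 6.96 ± 0.14 (SD, n = 4) with H2AZ1 hairpins. Over 12 arrays it covered 0.49 log2 units. The mean of all genes is held nearly equal between arrays by the quantile step of the normalization and so gives no comparison. The SD between the 2 arrays of a hairpin was 0.13, and that of the 6 hairpin means 0.12.

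**Figure D1:**
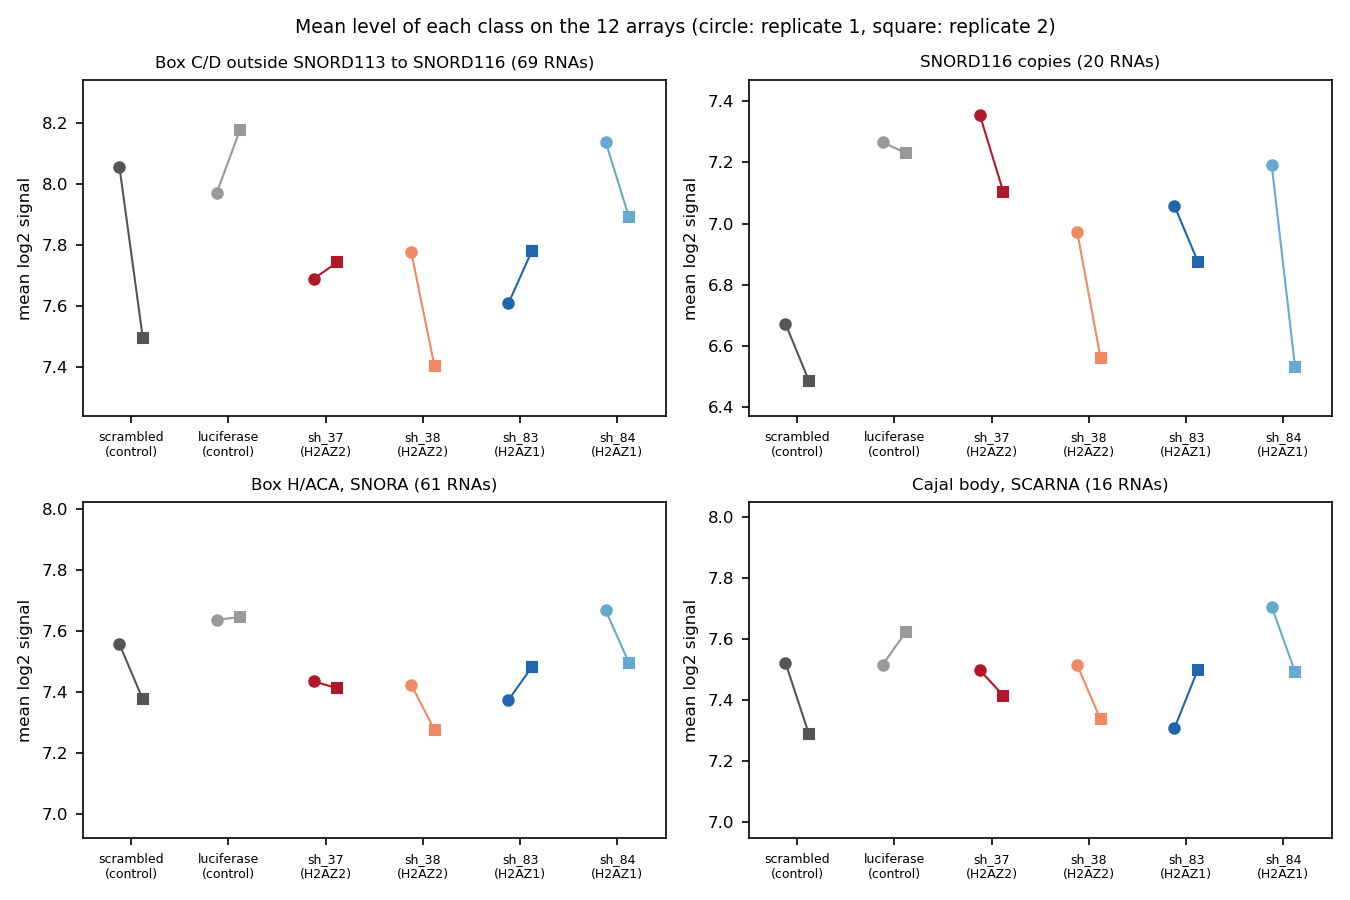
Mean log2 signal of 4 classes on each array, with the hairpin on the horizontal axis and the 2 arrays of a hairpin joined by a line; all panels span the same number of log2 units. Box C/D RNAs outside the imprinted families were lower on the second than on the first array of scrambled and sh_38, and the SNORD116 copies were lower on the second array of sh_84.

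The array effects differed between classes. The 69 SNORD RNAs outside the SNORD113 to SNORD116 families averaged 8.05 and 7.49 on the 2 scrambled arrays and 7.78 and 7.40 on the sh_38 arrays, and over all 12 arrays they covered 0.78 log2 units. The SNORD116 copies averaged 6.67 and 6.49 with scrambled, 7.27 and 7.23 with luciferase, 7.35 and 7.10 with sh_37, 6.97 and 6.56 with sh_38, 7.06 and 6.88 with sh_83, and 7.19 and 6.53 with sh_84. Both scrambled arrays thus lay below both luciferase arrays, and the sh_84 arrays were far apart. The SNORA mean covered 0.39 units and the SCARNA mean 0.42.

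Signal from single RNAs repeated poorly between arrays of a hairpin. The median SD within hairpins was 0.22 for the 192 RNAs, against 0.12 for all genes, and the median SD of the 6 hairpin means was 0.19, against 0.11. By class the within-hairpin SD was 0.25 for SNORD, 0.21 for SNORA and 0.17 for SCARNA. Hairpin means varied more than arrays of a hairpin for 58 of 192 RNAs (30.2%), against 44.5% of all genes. The median ratio of the hairpin-mean SD to the within-hairpin SD was 0.82, against 0.91 for all genes. Means of 2 arrays that do not differ between hairpins would give about 0.71, so a ratio under 1 does not mean that hairpins were alike. In the SNORD116 family the between-hairpin SD (0.33) exceeded the within-hairpin SD (0.29), and it was the larger for 13 of 20 copies, whereas for the other SNORD RNAs outside the imprinted families it was the larger for 22 of 69.

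The within-hairpin SD was wider than that of other genes in each of 5 ranges of level, with the smallest gap in the dimmest. Between 8 and 10 log2 units the median within-hairpin SD was 0.29 for 37 RNAs of the set and 0.11 for 5534 other genes, and at 10 and over it was 0.20 for 26 RNAs and 0.08 for 2674 other genes. Below 4 units the values were 0.14 for 29 RNAs and 0.12 for 398 other genes, and there the SD of hairpin means was slightly lower for the RNAs (0.079 against 0.083). In other small structured RNAs, a list of spliceosomal, vault, Y and related RNAs with 18 measured genes, the median within-hairpin SD was 0.22. RNA was isolated with an RNeasy kit per the labels. The RNAs are short, with a median length of 81 bases for SNORD, 134 for SNORA and 226.5 for SCARNA. The part of RNA isolation in their levels, differences and spread was not tested. Whether a probe set's signal came from the trimmed RNA or from host RNA that still holds the intron was not tested either.

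**Figure D2:**
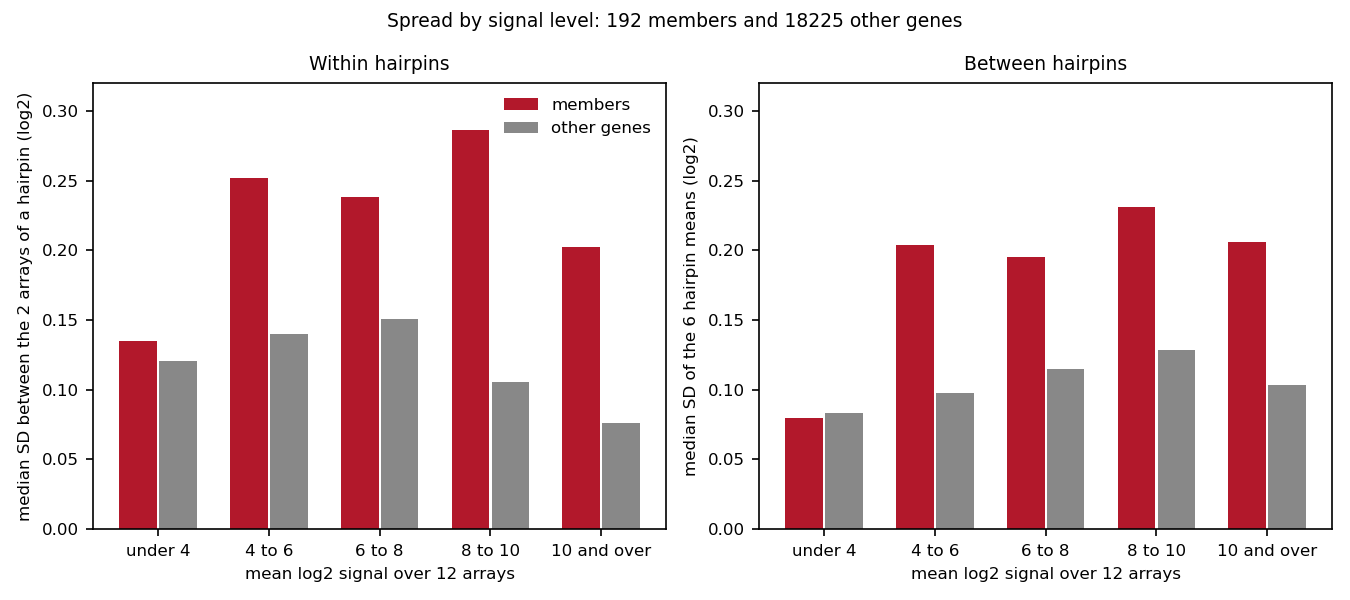
Median SD between the 2 arrays of a hairpin (left) and median SD of the 6 hairpin means (right), in log2 units, for bins of mean signal; red bars are the 192 RNAs, grey bars the 18225 other genes. From 4 log2 units up, the red bars are higher than the grey ones in both panels.

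The differences between the 2 arrays of a hairpin ran in a common direction over many RNAs. From the first to the second scrambled array the median difference was -0.23, with 127 of 192 RNAs lower and 60 lower by at least 0.5, while the median over all genes, held near 0 by the normalization, was 0.01. With sh_38 the median was -0.19 and 156 RNAs were lower, and with sh_84 it was -0.20 and 133 were lower. With sh_37, sh_83 and luciferase the medians were -0.04, 0.11 and 0.06. The other SNORD RNAs outside the imprinted families had a median of -0.65 for scrambled (56 of 69 lower), and the SNORD116 copies one of -0.70 for sh_84 (19 of 20 lower).

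**Figure D3:**
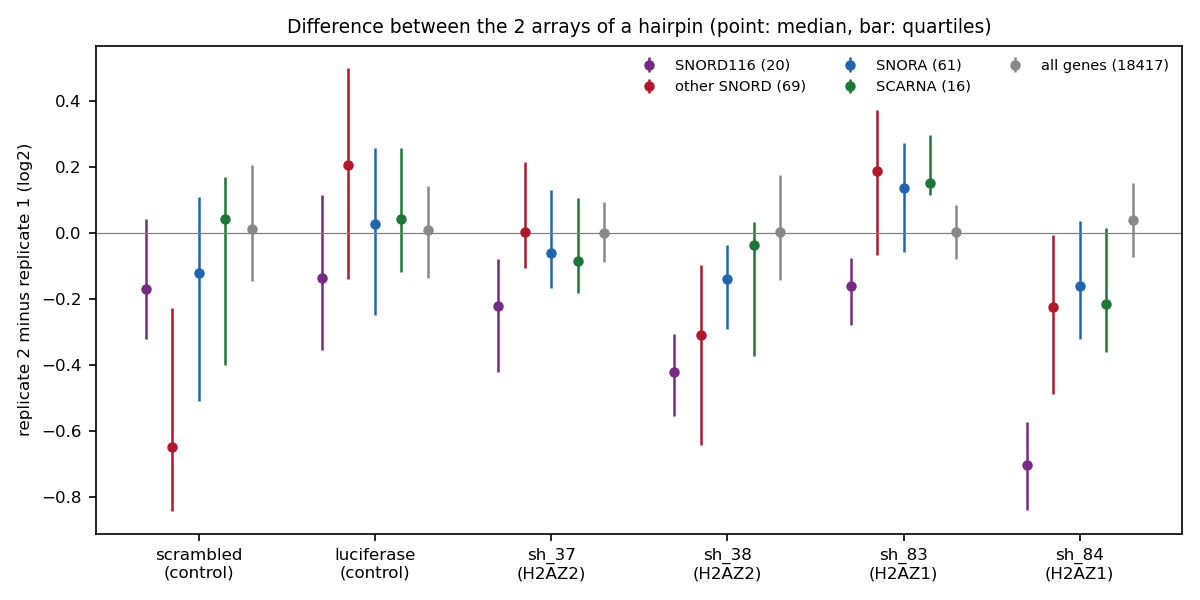
Difference of the second minus the first array of each hairpin in log2 units, as the median (point) and quartiles (bar) over the RNAs of a class and over all 18417 genes. The median of all genes stays near 0 for every hairpin, whereas it is -0.65 for the other SNORD RNAs with scrambled and -0.70 for the SNORD116 copies with sh_84.

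Counted by RNA, the second sh_38 array was the lowest of the 12 for 49 of 192 RNAs and the second scrambled array for 38, where they were the lowest for 13.6% and 7.76% of all genes. The luciferase arrays were the highest for 40 and 39 RNAs, and for 5.48% and 13.5% of all genes. The second sh_38 array was also the highest for 21.3% of all genes, so over all genes it stood at the edge in both directions.

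The least repeatable RNA was SNORA75, the box H/ACA RNA in an intron of nucleolin (NCL). It read 8.69 and 6.92 with scrambled, 7.22 and 8.14 with luciferase, 7.43 and 7.19 with sh_37, 7.62 and 7.05 with sh_38, 6.96 and 7.65 with sh_83, and 7.88 and 7.76 with sh_84. Its within-hairpin SD was 0.63 and the SD of its hairpin means 0.25, and the 2 scrambled arrays were the highest and the lowest of all 12. SNORD116-22 (0.62), SNORA14A (0.61), SNORD1A (0.58) and SNORD42A (0.58) followed in within-hairpin SD. SNORA14A owed its value to 2 arrays, the first sh_83 array at 8.02 and the first luciferase array at 7.70, with the other 10 between 6.08 and 6.60.

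Some RNAs of the same brightness repeated well. In the upper part of the level range the smallest within-hairpin SDs were those of SNORA5C (0.06), SNORD95 (0.08), SNORD83B (0.08), SNORA55 (0.10) and SCARNA22 (0.10). SNORA5C, in an intron of TBRG4, read 7.54 and 7.55 with scrambled, 7.56 and 7.74 with luciferase, 7.54 and 7.51 with sh_37, 7.60 and 7.61 with sh_38, 7.51 and 7.56 with sh_83, and 7.51 and 7.56 with sh_84. Apart from the second luciferase array its values lay within 0.10 of each other.

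RNAs of a family or host varied together over the arrays. Among RNAs with a mean of at least 4, the median Pearson correlation over 12 arrays was 0.76 for pairs of SNORD116 copies, 0.50 for pairs of other SNORD RNAs, 0.23 for pairs of SNORA RNAs and 0.11 for pairs of SCARNA RNAs. Outside SNORD116, 60 pairs with the same host had a median of 0.67 and 9950 pairs with different hosts one of 0.32. All pairs share the same 12 arrays, and near-identical copies may share probes, so these are descriptions. The non-member genes most like the mean level of the set over 12 arrays were BNIP1 (r = 0.95), USP40 (0.95), ATR (0.95), MICU3 (0.95) and MSH3 (0.94). Of 18225 other genes, 414 correlated above 0.8 and 1584 below -0.8 with that mean.

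Differences among the 6 hairpins, controls included, asked whether arrays of different hairpins differ by more than arrays of the same one. The limma F-test with Benjamini-Hochberg adjustment called 6 of 192 RNAs, while it called 12.9% of all genes, and 45 RNAs had an unadjusted p under 0.05, against 26.0% of all genes. They were SNORD60, SNORD45C, SNORD116-13, SNORD114-26, SNORD116-27 and SNORD116-24, with adjusted p from 0.0107 to 0.0483 in limma. The count fell to 1 and 2 without the first and second sh_37 array and to 3 without the first sh_83 array, where the share of all genes fell too, to 5.69%, 6.07% and 8.25%. It was 16 and 15 without the first and second scrambled array, with 14.4% and 14.2% of all genes, and 12 and 11 without the first and second sh_84 array, with 8.77% and 8.88% of all genes.

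SNORD60, a box C/D guide of ribosomal RNA methylation within the host SNHG19, had the smallest F-test p of the set. It read 6.73 and 6.47 with scrambled, 7.27 and 7.10 with luciferase, 6.39 and 6.52 with sh_37, 6.39 and 6.23 with sh_38, 6.40 and 6.77 with sh_83, and 7.32 and 6.97 with sh_84. Luciferase and sh_84 were high, and scrambled, sh_37, sh_38 and sh_83 low, so the split did not run along the targets.

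The comparison of H2AZ2 hairpins with controls asked whether loss of H2A.Z2 is accompanied by a change in these RNAs. The limma fit, with the hairpin as a random block, called 0 of 192 RNAs, while it called 3.31% of all genes. At an unadjusted p under 0.05 it counted 28 RNAs, 1 higher and 27 lower (14.6%, against 17.0% of all genes). Of the differences, 136 were negative, with a median of -0.13, against 0.03 over all genes. The 95% interval of the difference lay within 1 log2 unit of 0 for 170 RNAs, and within 0.5 for 83.

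The class medians for H2AZ2 minus control were -0.08 for SNORD, -0.16 for SNORA and -0.04 for SCARNA. The SNORD median mixed unlike groups. The SNORD116 copies had a median of 0.19, with 14 of 20 above 0, and the 69 SNORD RNAs outside the imprinted families one of -0.28, with 57 below 0. The dim SNORD115 copies had a median of -0.003 over 20 copies, and SNORD113 with SNORD114 one of 0.015 over 6. The SNORD minus SNORA difference of medians was 0.08, and among RNAs in the upper part of the level range it was -0.02, so its direction depended on the dim RNAs. In the other small structured RNAs the median was -0.17, with 0 of 18 called.

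**Figure D4:**
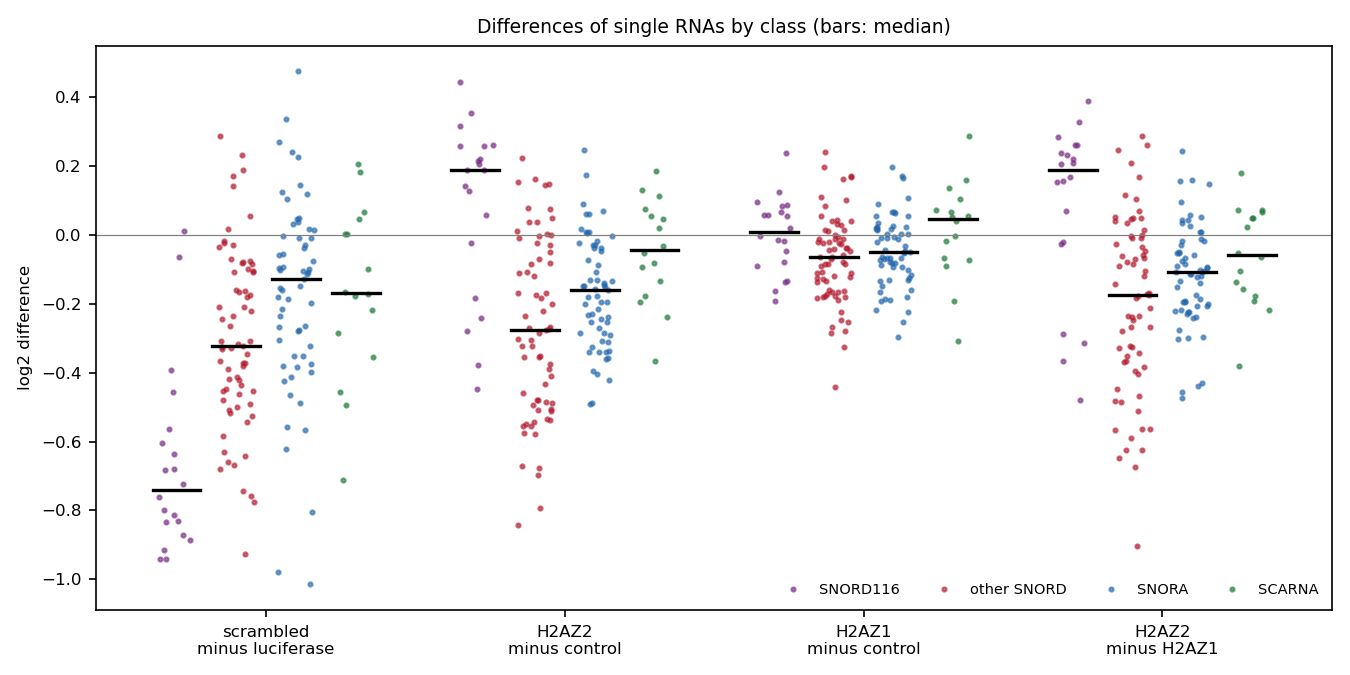
Log2 differences of single RNAs in 4 comparisons, coloured by class, with black bars at class medians; other SNORD are the 69 outside the SNORD113 to SNORD116 families. The SNORD116 copies lie furthest below 0 between the control hairpins, with a median of -0.74, and the median of the other SNORD RNAs lies below 0 in all 4 comparisons.

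In 9 of 192 RNAs (4.69%) the 4 H2AZ2 arrays lay wholly apart from the 4 control arrays, against 11.6% of all genes. Of these, 8 lay lower and 1 higher, while 7.46% of all genes lay wholly lower and 4.14% wholly higher. They were SNORD14E, SNORD45C, SNORD74, SNORD115-25, SNORD51, SNORA2A, SCARNA12 and SCARNA17 on the lower side and SNORD116-28 on the higher side. SNORD14E, a copy of U14, which acts in processing of the 18S ribosomal RNA precursor and lies in an intron of HSPA8, read 7.17 and 6.43 with scrambled, 6.72 and 7.54 with luciferase, 6.02 and 6.40 with sh_37 and 5.98 and 6.08 with sh_38. With the H2AZ1 hairpins it read 6.22 and 6.81 for sh_83 and 6.95 and 6.88 for sh_84. The highest H2AZ2 array thus lay just under the lowest control array, and the H2AZ1 arrays overlapped both. The difference was -0.84 with an SE of 0.24 and an adjusted p of 0.0718 in limma. Its neighbour SNORD14C read 10.79 and 10.12 with scrambled, 10.11 and 10.69 with luciferase, 9.61 and 10.30 with sh_37, 9.94 and 9.70 with sh_38, 9.79 and 10.36 with sh_83, and 10.39 and 10.82 with sh_84. Here the targets overlapped, with a difference of -0.54 (SE 0.24, adjusted p 0.277 in limma).

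SNORD74, from the GAS5 transcript, had the smallest adjusted p of the set in this comparison. It read 10.78 and 10.91 with scrambled, 10.83 and 10.89 with luciferase, 10.35 and 10.69 with sh_37, 10.41 and 10.40 with sh_38, 10.61 and 10.94 with sh_83, and 10.95 and 10.97 with sh_84. All 4 H2AZ2 arrays lay below the controls, while the first sh_83 array lay among the H2AZ2 values. The difference was -0.39 with an SE of 0.11 and an adjusted p of 0.0629 in limma. The other RNAs of GAS5, a host known to accumulate when translation stops, pointed the same way: SNORD44, SNORD75, SNORD77, SNORD78, SNORD79 and SNORD81 differed by -0.32 to -0.68. None of them passed the test, and on the second scrambled array they read 0.77 to 1.18 lower than on the first, whereas SNORD74 read 0.13 higher.

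SNORD116-28 was the RNA whose H2AZ2 arrays lay above all controls. It read 4.90 and 4.59 with scrambled, 4.72 and 4.89 with luciferase, 5.30 and 5.22 with sh_37, 4.94 and 4.92 with sh_38, 4.85 and 4.92 with sh_83, and 4.91 and 4.82 with sh_84. The gap came mainly from sh_37, since the sh_38 arrays were within 0.05 of the highest control. The difference was 0.32 (SE 0.11, adjusted p 0.132 in limma). SNORD115-25 differed by -0.36 (SE 0.14, adjusted p 0.186 in limma), at a dim level of 3.44 in controls. The second luciferase array, at 3.83 against 3.30 to 3.33 on the other control arrays, carried much of this, and without it the difference was -0.23 (adjusted p 0.350 in limma).

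A single array bore heavily on this comparison. Without the second scrambled array 10 of 192 RNAs passed with H2AZ2, all lower, while 4.6% of all genes passed. They were SNORD14E (-1.02), SNORD50B (-0.92), SNORD49A (-0.92), SNORD102 (-0.90), SNORD79 (-0.89), SNORD38A (-0.72), SNORD44 (-0.71), SNORD30 (-0.69), SNORD96A (-0.66) and SNORA74A (-0.41), 9 box C/D RNAs and a box H/ACA RNA. Without the first sh_83 array 2 passed, and without the second sh_37 array 1 passed, with 3.6% and 1.64% of all genes.

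With the H2AZ1 hairpins 0 of 192 RNAs passed in limma, while 0.0% of all genes did. At an unadjusted p under 0.05 the count was 2, against 3.45% of all genes, both lower: SCARNA12 and SNORA51. The median difference was -0.04 (126 of 192 below 0), and the 95% interval lay within 1 log2 unit of 0 for 190 RNAs and within 0.5 for 108. This median averages 2 unlike hairpins. It was -0.12 with sh_83 (148 of 192 below 0) and 0.03 with sh_84 (76 below 0), against 0.01 over all genes with each. For the 69 SNORD RNAs outside the imprinted families it was -0.23 with sh_83 (65 below 0) and 0.11 with sh_84 (19 below 0). In 3 RNAs (1.56%, against 3.33% of all genes) the arrays lay wholly apart from the controls, namely SCARNA12, SNORA51 and SNORD115-33, all lower, as 2.58% of all genes were.

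SCARNA12, a scaRNA within PHB2, read 11.18 and 11.47 with scrambled, 11.28 and 11.37 with luciferase, 10.68 and 11.08 with sh_83, 11.15 and 11.16 with sh_84, 10.94 and 11.08 with sh_37, and 11.16 and 11.16 with sh_38. All 8 arrays with a targeting hairpin lay below the 4 control arrays, with the first sh_83 array lowest. The H2AZ1 difference was -0.31 (SE 0.12, adjusted p 1.00 in limma) and the H2AZ2 difference -0.24 (SE 0.12, adjusted p 0.325 in limma). SNORA51, within NOP56, a core protein gene of box C/D particles, differed by -0.30 (SE 0.12, adjusted p 1.00 in limma) with H2AZ1.

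SNORD13, which helps process 18S ribosomal RNA and is transcribed from its own promoter, read 11.89 and 12.06 with scrambled, 12.66 and 12.27 with luciferase, 12.27 and 12.21 with sh_37, 12.28 and 12.09 with sh_38, 11.76 and 11.98 with sh_83, and 12.15 and 11.93 with sh_84. The 3 targets overlapped, and the differences were -0.01 with H2AZ2 and -0.27 with H2AZ1 (both with an SE of 0.15). Its pseudogene SNORD13P3, at 11.90, is similar in sequence, and the 2 probe sets may share signal.

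Set against H2AZ1, the H2AZ2 arrays were lower in 2 of 192 RNAs that passed in limma and higher in 0, while 4.35% of all genes passed, 2.28% lower and 2.08% higher. In 7 RNAs the arrays of the 2 targets lay wholly apart, against 13.3% of all genes: SNORD30, SNORD45C, SNORD49A, SNORD79 and SCARNA17 lay lower with H2AZ2, and SNORD115-41 and SNORD116-28 higher. SNORD45C, a box C/D guide of ribosomal RNA methylation in an intron of RABGGTB, read 9.21 and 9.36 with sh_37, 9.30 and 8.97 with sh_38, 9.64 and 9.64 with sh_83, 10.12 and 9.92 with sh_84, 9.71 and 9.47 with scrambled, and 9.58 and 9.92 with luciferase. All 4 H2AZ2 arrays were below all 8 others. The difference from H2AZ1 was -0.62 (SE 0.14, adjusted p 0.0245 in limma), and that from controls -0.46 (SE 0.14, adjusted p 0.0906 in limma). SNORD74 differed from H2AZ1 by -0.40 (SE 0.11, adjusted p 0.0476 in limma), with arrays that overlapped. The neighbours SNORD45A and SNORD45B, in other introns of RABGGTB, did not pass.

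The calls depended on single arrays, here and over all genes. Without the first scrambled, the first sh_84 or the second sh_84 array 0 passed, and the share of all genes fell to 1.48%, 1.62% and 1.66%. Without the first sh_83 array 4 passed, with 4.12% of all genes. The count was 1 without the first sh_37 or the second sh_83 array, with 2.65% and 2.9% of all genes. It was also 1 without the first or second sh_38 array, with 4.12% and 4% of all genes. Leaving out the first or second luciferase array gave 1 as well, with 2.81% and 4.24% of all genes. The SNORD45C difference was -0.43 without sh_84, the hairpin with no clear reduction of H2AZ1, and no longer passed.

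**Figure D5:**
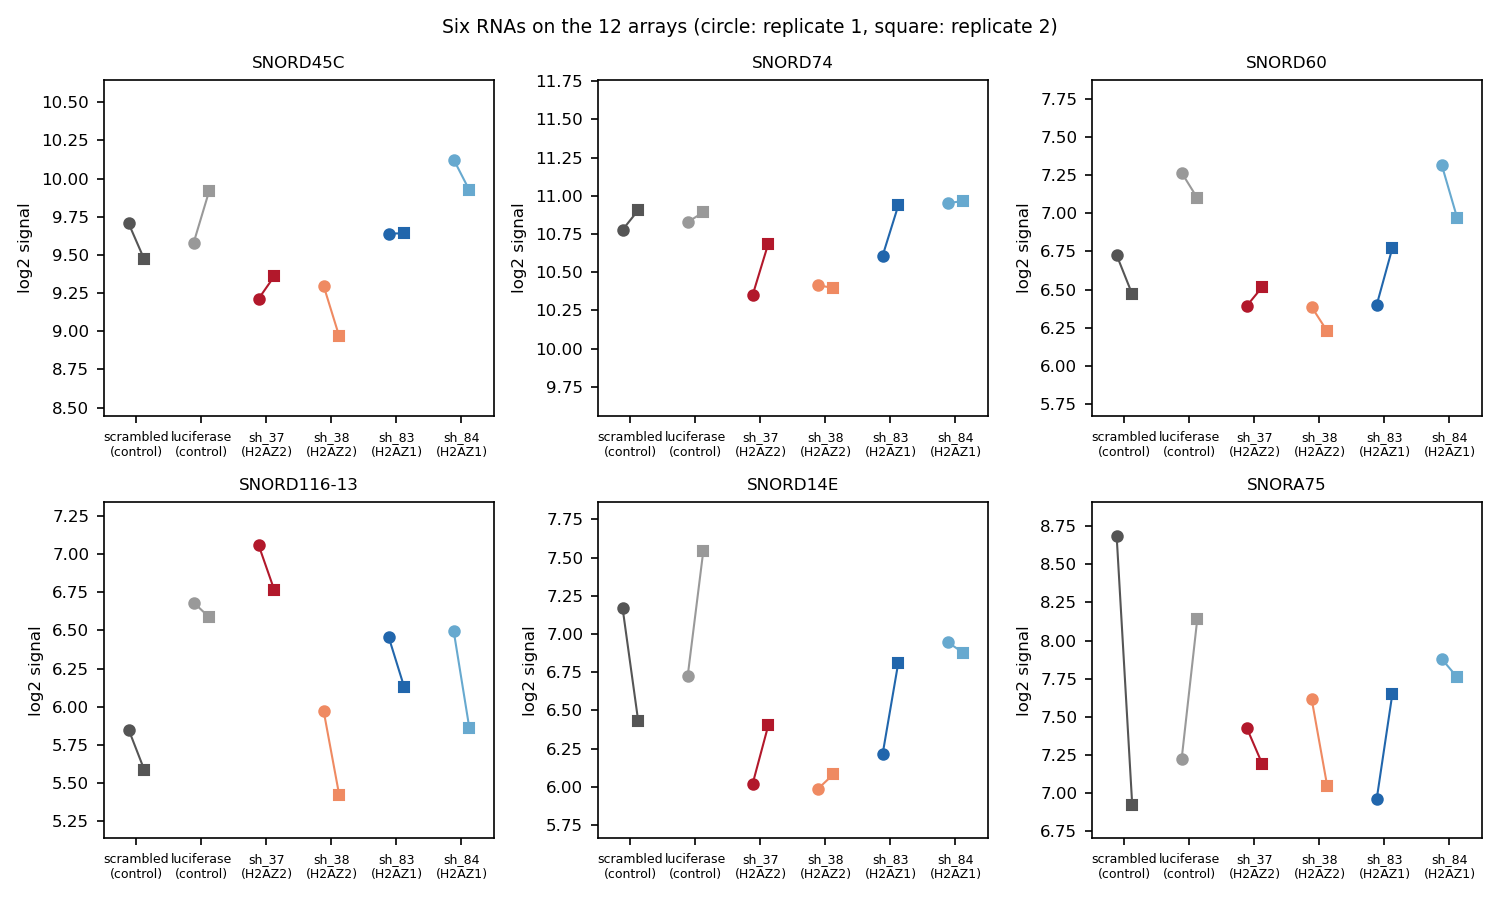
Log2 signal of 6 RNAs on each array (circle and square are the first and second array of a hairpin, joined by a line; all panels span the same number of log2 units). SNORD45C lies lower on the 4 H2AZ2 arrays than on the other 8, SNORD60 and SNORD116-13 split the 2 control hairpins, and SNORA75 spans 1.76 units between the 2 scrambled arrays.

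The 2 H2AZ2 hairpins were then set against the controls singly, in a fit where variation among hairpins with a common target does not enter the error. With sh_37, 7 of 192 RNAs passed in limma, 5 higher and 2 lower, while 12.9% of all genes passed, 5.72% higher and 7.19% lower. With sh_38, 2 passed, both lower, while 4.6% of all genes passed, 3.33% lower. With sh_83 and sh_84, 0 passed in limma, while 0.641% and 0.353% of all genes passed, and at an unadjusted p under 0.05 the counts were 13 and 3, against 10.2% and 8.36% of all genes.

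The 5 RNAs higher with sh_37 were copies of SNORD116: SNORD116-13, SNORD116-24, SNORD116-27, SNORD116-14 and SNORD116-28. SNORD116-13 read 7.06 and 6.76 with sh_37, 5.97 and 5.42 with sh_38, 5.85 and 5.59 with scrambled, 6.68 and 6.59 with luciferase, 6.46 and 6.13 with sh_83, and 6.50 and 5.86 with sh_84. The sh_37 arrays were the 2 highest, but the luciferase arrays lay much nearer to them than the scrambled ones. The difference from the mean of both controls was 0.73 (SE 0.20, adjusted p 0.0318 in limma). It was 1.19 (adjusted p 0.00732 in limma) against scrambled alone and 0.28 (adjusted p 0.503 in limma) against luciferase alone.

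SNORD116-24 read 11.62 and 11.36 with sh_37, 10.16 and 10.48 with scrambled, 11.40 and 11.01 with luciferase, 10.93 and 10.56 with sh_38, 11.08 and 10.92 with sh_83, and 11.13 and 10.41 with sh_84. Its sh_37 arrays overlapped those of luciferase. The difference was 0.73 against both controls and 0.28 against luciferase alone (adjusted p 0.0359 and 0.50 in limma). SNORD116-27 and SNORD116-14 differed by 0.57 and 0.51 from both controls and by 0.25 and 0.20 from luciferase alone, where neither passed. SNORD116-28, whose array values are given above, was the exception: it differed by 0.48 from both controls, by 0.51 from scrambled alone and by 0.45 from luciferase alone, and it passed in each (adjusted p 0.00771, 0.0145 and 0.0305 in limma). Over all 20 copies the median with sh_37 was 0.47 (15 above 0), and with sh_38, which has the same target, it was -0.09 (5 above 0).

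Lower with sh_37 were SNORD114-26 and SNORA54. SNORD114-26, a copy in the imprinted MEG8 transcript, read 5.0 and 4.74 with sh_37, 5.70 and 5.45 with sh_38, 5.21 and 5.10 with scrambled, 5.77 and 5.47 with luciferase, 5.55 and 5.33 with sh_83, and 5.10 and 5.34 with sh_84. Both sh_37 arrays lay below the other 10, and the difference was -0.52 (SE 0.13, adjusted p 0.0217 in limma). SNORA54, within NAP1L4, differed by -0.42 (SE 0.12, adjusted p 0.0463 in limma). Against scrambled alone neither passed, with differences of -0.28 and -0.29.

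With sh_38 the RNAs that passed were SNORD60, at -0.58 (SE 0.14, adjusted p 0.0348 in limma), and SNORD45C, at -0.54 (SE 0.13, adjusted p 0.0393 in limma). SNORD60 also differed between the control hairpins, by -0.58 for scrambled minus luciferase. The counts moved with single arrays. For both hairpins the count rose most without the second scrambled array, mostly through lower RNAs, and the share of all genes rose too. Among other cases, it fell for sh_37 without either sh_37 array, and for sh_38 without the second sh_38 array. There the share of all genes fell too. Each such fit leaves 1 array in a hairpin group, which limits what its count can show.

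The 2 control hairpins, which are not directed at a human gene, give the background of such differences. Scrambled minus luciferase gave 0 of 192 RNAs passing in limma, while 0.0% of all genes passed, and 49 RNAs at an unadjusted p under 0.05, against 7.51% of all genes. The median was -0.20, with 152 of 192 RNAs lower with scrambled, and it was -0.74 for the SNORD116 copies (19 of 20 lower), -0.32 for SNORD outside the imprinted families, -0.13 for SNORA and -0.17 for SCARNA. In 72 RNAs (37.5%) the 2 scrambled arrays lay wholly apart from the 2 luciferase arrays, against 30.5% of all genes. SNORD116-13 differed by -0.91 (SE 0.23) and SNORD116-24 by -0.89 (SE 0.23), each more than its difference between sh_37 and the controls. The other small structured RNAs had a median of -0.25, with 16 of 18 lower.

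Most host transcripts varied less than the RNAs inside them. For 88 RNAs with a single measured host, 67 hosts in all, the median within-hairpin SD was 0.22 for the RNAs and 0.09 for the hosts, and 9 of the 67 hosts had a larger SD than their RNAs. Across these 88 RNAs the H2AZ2 minus control difference of the RNA and of its host had a Pearson correlation of 0.06 and a Spearman correlation of 0.15. RNAs that share a host are not independent points. The hosts had a median difference of -0.05 and the RNAs one of -0.17.

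The named hosts gave examples. The 3 RNAs of NCL, SNORA75, SNORD20 and SNORD82, had a median difference of -0.42 with H2AZ2 and had a median of -1.48 for the second minus the first scrambled array, where NCL, which encodes nucleolin, moved by -0.02. NCL itself differed by -0.18 (SE 0.07, adjusted p 0.188 in limma). The 3 RNAs of RPL23A, SNORD42A, SNORD4A and SNORD4B, had a median of -0.49, and RPL23A, a ribosomal protein gene, differed by -0.04 (SE 0.07, adjusted p 0.769 in limma). Between the scrambled arrays those RNAs had a median of -0.99 and RPL23A moved by -0.11. The RNAs of SNHG17 (SNORA71A, SNORA71C and SNORA71D), TBRG4 and RPL3 had medians of -0.20, -0.03 and -0.05, and these hosts differed by -0.10, -0.09 and 0.04. RABGGTB was one of the 9 hosts that varied more than their RNAs, with a within-hairpin SD of 0.19 against a median of 0.17 for SNORD45A, SNORD45B and SNORD45C. It moved by 0.48 between the luciferase arrays, where the RNAs had a median of 0.06, and it differed by -0.27 with H2AZ2 (SE 0.14, adjusted p 0.358 in limma), where they had a median of 0.00. GAS5, SNHG14 and RPL13A had no probe set of a single symbol and were not analysed here.

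Of the 67 hosts, 4 passed with H2AZ2, all lower: TIPIN, NSD2, SIPA1L1 and MBD2. That is 5.97% of the hosts, against 3.31% of all genes. TIPIN, a replication fork protein gene, differed by -0.65 (SE 0.11, adjusted p 0.00957 in limma), and SCARNA14 in its span differed by 0.05. NSD2, a histone methyltransferase gene, differed by -0.45 (SE 0.10, adjusted p 0.0311 in limma), and its SCARNA22 differed by -0.20 without passing.

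The genes of snoRNA particles were examined alongside. The measured core proteins, fibrillarin (FBL) and NOP58 for box C/D and DKC1, NHP2, NOP10 and GAR1 for box H/ACA, gave 0 of 6 calls with H2AZ2 and 0 of 6 with H2AZ1 in limma, and 1 of 6 and 0 of 6 at an unadjusted p under 0.05, where 17.0% and 3.45% of all genes were counted. FBL differed by -0.13, NOP58 by -0.13, NHP2 by -0.01, NOP10 by 0.06 and GAR1 by -0.02 with H2AZ2. DKC1, the pseudouridine synthase, read 10.19 and 10.23 with scrambled, 10.01 and 10.22 with luciferase, 9.84 and 9.96 with sh_37, 9.92 and 9.82 with sh_38, 9.95 and 10.04 with sh_83, and 10.28 and 10.38 with sh_84. All 4 H2AZ2 arrays lay below the controls, and the difference was -0.28 (SE 0.10, adjusted p 0.164 in limma). NOP56 and SNU13 had no probe set of a single symbol.

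Among wider lists, 0 of 10 assembly factors, 0 of 10 Cajal body protein genes, 0 of 30 factors of ribosomal RNA precursor processing, 0 of 14 RNA polymerase I genes and 1 of 19 genes of snoRNA 3′ end trimming and decay passed with H2AZ2 in limma. Their medians were -0.04, -0.14, -0.10, -0.10 and -0.13, and at an unadjusted p under 0.05 the counts were 2, 4, 4, 1 and 5, beside 17.0% of all genes. The shares called, 0 in 4 lists and 1 of 19 in the last, stand beside 3.31% of all genes. The gene that passed was EXOSC9, a subunit of the RNA exosome, which trims snoRNA ends. It averaged 10.30 in controls and 9.95 with H2AZ2, a difference of -0.35 (SE 0.09, adjusted p 0.0436 in limma). Set against H2AZ1, the exosome genes EXOSC2 (-0.32) and EXOSC8 (-0.53) and the processing factor UTP18 (-0.33) were lower with H2AZ2 and passed. With single hairpins more of these genes passed, all lower. With sh_37 they were EXOSC2 (-0.33), EXOSC8 (-0.47), EXOSC9 (-0.37), UTP18 (-0.34), the polymerase I subunit gene POLR1G (-0.51), GEMIN5 (-0.40) and the assembly factor PIH1D1 (-0.25), where 12.9% of all genes passed. With sh_38 they were NOLC1, a nucleolar and Cajal body phosphoprotein gene, at -0.56 (SE 0.09, adjusted p 0.00674 in limma), and UTP20, at -0.49 (SE 0.10, adjusted p 0.0198 in limma), where 4.6% of all genes passed. With sh_83 and sh_84 0 passed in limma. With H2AZ1 hairpins 0 genes of these lists passed in limma. In these bulk arrays fewer cells of a kind and less RNA per cell cannot be told apart.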

How the data were processed

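The deposited values are log2 signals of Affymetrix Human Gene arrays, and per the submitters' processing notes they were made with RMA, which corrects background, normalizes by quantiles and summarises probes. No scanner files were used. Of 33297 probe sets, 19460 had a single gene symbol in the platform annotation, 1754 several and 12083 were not listed, and for 769 genes with several probe sets the brightest was used, leaving 18417 genes. Array medians lay between 7.00 and 7.10. The members, lists and named genes were chosen with earlier results of these data known.

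Fits used limma 3.58.1 in R 4.3.3 over all genes, with Benjamini-Hochberg adjustment and a threshold of 0.05. The targets were compared with arrays of a hairpin treated as correlated (a random block in duplicateCorrelation, whose consensus value was 0.157). Single hairpins and the F-test used 6 groups of 2 arrays. The number of arrays limits the precision. Named RNAs were those that passed (or lay apart) by size, the 8 brightest SNORD, 6 SNORA and 5 SCARNA, the 4 dimmest, the 5 most and 5 least variable, the 5 with the smallest F-test p, RNAs of precursor cleavage, the core proteins, hosts of at least 3 and the 5 most alike genes. Hosts were taken by span in GRCh38.p14 without regard to strand, although the same strand had been planned, because the reference gene table gives none. The fitting code was tested on simulated data. Alternatives covered the blocks, scaling, probe set choice, low-signal filter, prior and arrays left out.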

Additional observations from a re-analysis of the deposited data

Results flagged for a closer look

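In each target group of 4 arrays, the gap between an extreme array and its nearest neighbour was compared with the whole range by Dixon's 95% limit, over 171 groups. Chance passes about 1 in 20 such groups, and 15 of the 171 passed here. The groups share arrays and are not independent. The second sh_38 array stood apart on the low side within H2AZ2 for the mean of all 192 RNAs (gap share 0.904, 6.68 against 6.91 to 6.93), the SNORD mean (0.947), the SNORA mean (0.857) and SNORD42A (0.879). The second luciferase array stood apart on the high side within the controls for SNORD115-25 (0.95), SCARNA17 (0.974) and SNORA5C (0.907). Within H2AZ1, the first sh_83 array stood apart for SNORD74 (0.918, low), SCARNA12 (0.845, low), SNORD95 (0.867, low) and SNORA14A (0.916, high), the first sh_84 array on the high side for SNORD45A (0.89), SCARNA7 (0.894) and SNORD115-37 (0.858), and the second sh_84 array on the high side for SNORD13P1 (0.84). Among the 76 probe sets with several symbols, 1 passed with sh_37 in limma, lower than in the controls, and 0 passed in the other comparisons.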

How the results depend on the processing

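The number of RNAs that passed varied with the settings. For H2AZ2 against control (0, with 3.31% of all genes) it was 2 without the hairpin block and 1 with a trended and robust prior. Over all genes 5.2% and 4.2% passed there. It was 7 with the 6 hairpins as groups, where the share of all genes was not counted, so this count cannot be set against all genes. Without sh_38 and without sh_83 it was 1 each, with 9.13% and 3.6% of all genes. For H2AZ2 against H2AZ1 (2, with 4.35% of all genes) it was 5 with the 6 hairpins as groups, again with no share counted. It was 1 after quantile normalization, without the dimmest 25% of genes and relative to the array median of the set. There 4.55%, 5.42% and 4.34% of all genes passed. It was also 1 without scrambled and without luciferase (3.2% and 3.14% of all genes), and 0 without sh_84 (0.505%). The trended and robust prior gave 20 for the F-test (6), 14 for sh_37 (7), 6 for sh_38 (2) and 1 for sh_83 (0). Calls over all genes rose too, to 17.6% for the F-test, 15.5% for sh_37 and 6.87% for sh_38, and were not counted for sh_83. For sh_37 the count was 4 after centring on array medians, 11 relative to the set's array median and 12 against scrambled alone. The comparison with scrambled alone was chosen after seeing the data. For sh_38 the count was 0 relative to the set's array median. The share of all genes was not counted for these single-hairpin settings, so these counts cannot be set against all genes. The SNORD minus SNORA difference (0.0764) was -0.024 in the upper part of the level range. Leaving out single arrays gave 0 to 10 for H2AZ2 against control, 0 to 4 for H2AZ2 against H2AZ1, 1 to 16 for the F-test, 0 to 18 for sh_37 and 0 to 22 for sh_38. The cause was not tested, except that fewer arrays or genes were fitted where some were left out. For 20 results of single RNAs, 372 of 481 values kept their direction and side of the threshold, 14 newly passed, 95 no longer passed and 0 changed direction. The count for H2AZ1 against control was 0 throughout, and the ratio of between to within spread (0.82) moved by less than its spread over hairpins.

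With the replicate number as a block the F-test gave 20, sh_37 12 and sh_38 6, with 15.1%, 14.8% and 6.03% of all genes. The labels do not say that the numbers pair the arrays. Over 15 pairs of hairpins, deviations of same-numbered arrays over all genes correlated at -0.47 to 0.68, with 9 over 0.1. The 6 pairs among scrambled, sh_37, sh_38 and sh_84 lay between 0.38 and 0.68, whereas luciferase correlated at -0.13 to -0.47 with these 4, so a shared factor among some same-numbered arrays was seen but not a pairing of all. No background level is given with these signals, so dim probe sets such as those of SNORD115 have no detection limit.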
